A study of Mus musculus with 8 samples.

Results

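Among 13493 genes that reached a level of 10 in some input library, of 53465 in the count table, 82 (0.608%) were higher in both libraries labelled PA than in both labelled RO. The rule took a gene when its lower PA level was at least 2 times its higher RO level, after 0.5 was added to each. Levels are normalized CPM, that is counts corrected for the depth of each library by median-of-ratios size factors. The members were chosen by these 4 input levels, so the PA to RO differences below are a description with no test. A symbol was at hand for 32 of the 82 genes, since names came from the peak lists and a gene without a peak in any list has none here. The other 50 are described by counts and ranges.

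The series mapped m6A (N6-methyladenosine, a methylated form of the RNA base) by MeRIP-seq, which sequences RNA fragments enriched with an antibody beside the unselected input. The mice were C57BL/6, 12-week-old, and either wild type (WT) or Alkbh5-/- (KO), and their testes gave the spermatogenic cells labelled PA or RO. There were 8 samples, 1 input and 1 immunoprecipitated library for each of WT PA, KO PA, WT RO and KO RO. How the fractions were separated and how many animals stand behind a sample are not given in the sources used here. With 1 library per group no difference has a replicate check, and no p-value was computed. Intervals are 95% and cover counting error only.

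Pachytene spermatocytes are germ cells in the long stage of meiotic prophase when homologous chromosomes are paired by the synaptonemal complex and recombine. Round spermatids are the haploid cells that follow, in which genes of the acrosome, the tail and sperm chromatin are switched on. Alkbh5 encodes a demethylase that removes m6A, a mark placed by a methyltransferase complex and often found near stop codons and in 3′ untranslated regions.

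Levels below are given in the order WT PA, KO PA, WT RO, KO RO unless a sentence says otherwise. The input totals ranged from 9921365 (KO PA) to 13147239 (WT PA) counts, so that 1 count had a level between 0.0820 and 0.0896. Alkbh5 was not analysed here, since no source used here pairs its symbol with an identifier of the count table, and the genotype labels were not checked on it. The fraction labels were checked on marker genes, and pachytene markers did not separate PA from RO. Of 14 pachytene markers with a symbol, 1 was higher in both PA libraries and 2 in both RO libraries. Their summed levels were 4363, 2444, 3986 and 2636, with both WT libraries above both KO libraries. Sycp1, a synaptonemal complex protein, stood at 346, 328, 351 and 419 in the same order. None of the 6 synaptonemal complex genes with a symbol was higher in both PA libraries, and 1 was higher in both RO libraries. Of 17 round spermatid markers, 4 were higher in both RO libraries and 0 in both PA libraries, with sums of 466, 1041, 959 and 1649. Within a genotype, the median log2 ratio of PA to RO of these 17 markers was -1.05 in WT and -0.65 in KO. For the 14 pachytene markers it was 0.04 and -0.01. Over all genes at 10 or more, 17.2% were higher in both PA libraries and 15.7% in both RO libraries by any size. In other germ cell lists, 5 of 23 recombination and DNA repair genes, 2 of 10 piRNA pathway genes, 1 of 10 meiotic cohesin genes and 0 of 20 transcription and RNA regulators of spermatocytes were higher in both PA libraries. Higher in both RO libraries were 2, 2, 1 and 2 genes of these lists, in the same order. For this reason the 82 genes are called genes higher in both PA libraries, and not genes of pachytene cells.

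Lists of somatic cell markers differed in how their sums lay between the fractions: those of Leydig and Sertoli cells were higher in both PA libraries than in both RO libraries, and the others were not. The 8 Leydig cell markers with a symbol summed to 450, 229, 168 and 139, and 2 of them were higher in both PA libraries. Of 10 Sertoli markers at 10 or more, 7 were higher in both PA libraries. The sums over all 13 Sertoli markers with a symbol were 1039, 1042, 766 and 780. The 13 endothelial markers summed to 268, 387, 139 and 385, and 3 were higher in both PA libraries. The 11 peritubular myoid and smooth muscle markers summed to 866, 824, 729 and 828 (3 higher in both PA libraries), and the macrophage and blood markers, 3 of them at 10 or more, to 68.4, 119, 104 and 146 (0 higher in both PA libraries, 1 in both RO libraries). Immediate early and heat shock genes, which respond quickly to stimulation or stress, were higher in both PA libraries for 13 of 23, with sums of 3886, 3054, 2037 and 2853. No gene of any marker or pathway list was a member under the rule, which compares libraries across genotypes. Within a genotype, the median log2 ratio of PA to RO of the Leydig markers was 1.29 in WT and 1.09 in KO. It was lower in each genotype for every other list of somatic cell markers. No listed marker with a symbol was at 0 in all 4 libraries, but a symbol here requires a peak. The part of other cells or of stress in the PA to RO differences was not tested. In bulk RNA, fewer cells of a type and less RNA per cell cannot be told apart.

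**Figure D1:**
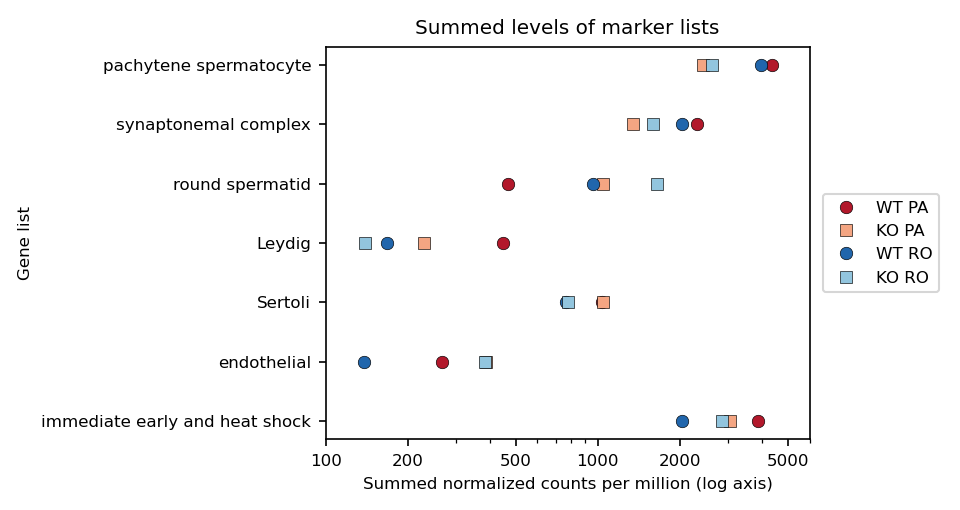
Summed normalized CPM of 7 gene lists (log axis) in the 4 input libraries, red for PA and blue for RO, circles for WT and squares for KO. The pachytene list lies at 4363 and 3986 in WT and at 2444 and 2636 in KO, whereas the Leydig list is highest in WT PA at 450; points that coincide, such as the endothelial sums of 387 and 385, cover each other.

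The promoters of 5 members are shown because these genes lead the groups described next: Gbp5 has the highest ratio among named members, Il17rb has genotype ratios of opposite sign in the fractions, Irs1 and Irs2 are related adaptors, and Aldh1l1 is the most abundant protein-coding one. Each sequence is the 250 bases before the transcription start, 5′ to 3′ on the strand of the gene, from the RefSeq table of GRCm38.p6: Gbp5 at chr3:142496684-142496933 (plus strand), Il17rb at chr14:30008897-30009146 (minus), Irs1 at chr1:82291440-82291689 (minus), Irs2 at chr8:11008930-11009179 (minus) and Aldh1l1 at chr6:90550543-90550792 (plus). Capitals mark matches, on either strand, to the MYB motifs TAACNG and AACNGNC, the RFX motif GTTGCC and the GC box GGGCGG; the MYB motifs overlap each other.
Gbp5: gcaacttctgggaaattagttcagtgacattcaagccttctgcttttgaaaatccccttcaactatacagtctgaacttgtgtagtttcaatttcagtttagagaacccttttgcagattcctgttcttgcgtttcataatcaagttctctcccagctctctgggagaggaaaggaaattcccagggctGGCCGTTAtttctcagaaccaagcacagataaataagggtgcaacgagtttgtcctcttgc
Il17rb: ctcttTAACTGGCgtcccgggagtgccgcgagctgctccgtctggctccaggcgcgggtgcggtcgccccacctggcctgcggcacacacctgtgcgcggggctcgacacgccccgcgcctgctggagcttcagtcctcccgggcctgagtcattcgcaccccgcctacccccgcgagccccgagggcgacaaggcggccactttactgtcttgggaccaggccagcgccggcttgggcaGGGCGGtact
Irs1: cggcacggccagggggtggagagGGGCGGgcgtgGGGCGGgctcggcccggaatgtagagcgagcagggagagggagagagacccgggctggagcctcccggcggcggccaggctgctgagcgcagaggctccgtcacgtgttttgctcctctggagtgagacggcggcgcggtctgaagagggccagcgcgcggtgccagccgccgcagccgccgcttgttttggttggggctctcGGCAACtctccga
Irs2: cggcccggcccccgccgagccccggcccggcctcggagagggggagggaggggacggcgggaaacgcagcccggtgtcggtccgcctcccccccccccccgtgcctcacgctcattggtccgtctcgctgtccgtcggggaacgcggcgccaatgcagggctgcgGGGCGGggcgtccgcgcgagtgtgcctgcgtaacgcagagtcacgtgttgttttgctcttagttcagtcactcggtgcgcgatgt
Aldh1l1: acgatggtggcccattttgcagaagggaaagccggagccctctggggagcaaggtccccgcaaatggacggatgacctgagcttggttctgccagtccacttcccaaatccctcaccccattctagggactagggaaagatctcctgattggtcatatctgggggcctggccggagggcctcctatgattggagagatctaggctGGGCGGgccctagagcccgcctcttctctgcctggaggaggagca

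The table held 23 promoter windows for 22 of the 32 named members. A TAACNG match was in 3 of them (13%), against 19.8% of all 32851 windows, and an AACNGNC match in 7 (30.4%, against 27.7%). MYBL1, which binds such sites, is a transcription factor needed for pachytene gene expression. The GC box, bound by SP family factors, was in 11 windows (47.8%, against 32.7%). The RFX motif was in 2, those of Irs1 and Spry2 (8.70%, against 10.4%), and the cAMP response element TGACGTCA in 0 (against 1.55%). Matches are letters in a window and not evidence of binding.

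The 82 genes were mostly of modest level. The median of the highest level over the 4 libraries was 17.6, against 36.6 over all 13493 genes, and 46 of 82 (56.1%) stayed under 20, against 27.1%. Levels of 50 or more were reached by 13 genes and of 100 or more by 3. Median levels were 15.7, 16.5, 3.97 and 4.89. The ratio of lower PA to higher RO ran from 2.01 to 7.45 with a median of 2.36; 50 genes lay under 2.5 and 13 at 3 or more. Just inside the threshold were Irs1 (2.01), Pdcl (2.01) and Slc25a30 (2.02), and just outside it Nt5dc3 (2.00 after rounding), Hs3st3b1 (1.99) and Zbtb8b (1.97). The log2 ratio of PA to RO had a median of 2.06 in WT and 1.42 in KO, against 0.02 over all genes at 10 or more in each genotype. Taken within 1 genotype alone, PA was at least 2 times RO for 1302 genes in WT (9.65%) and for 758 in KO (5.62%).

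**Figure D2:**
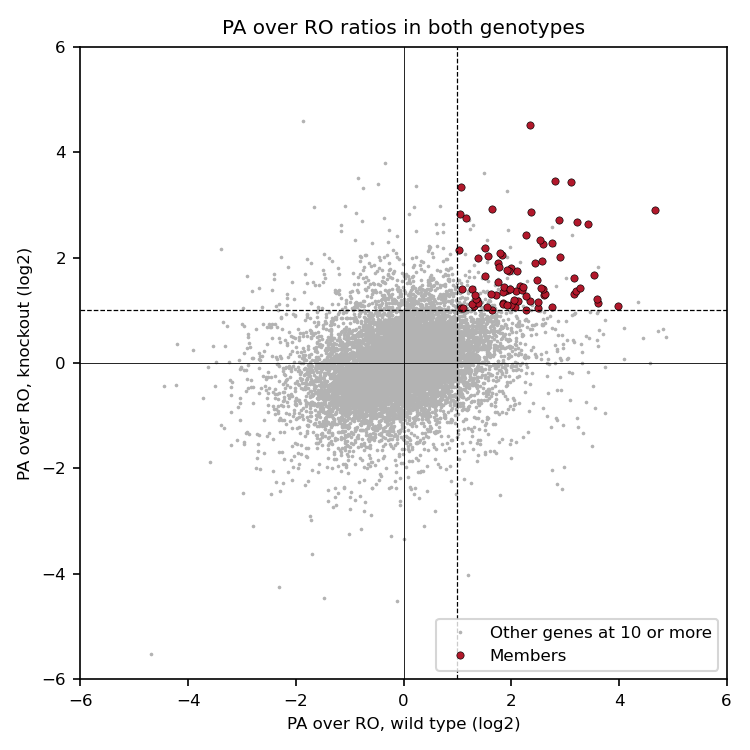
PA over RO in WT (horizontal, log2) and in KO (vertical, log2) for the 82 members in red and the other genes at 10 or more in grey, with 0.5 added to each level; dashed lines mark a log2 ratio of 1. All members lie beyond both dashed lines because the rule requires it.

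Of the 32 named members, 24 were listed as protein coding (75%, against 88.9% of the 7002 named genes at 10 or more) and 8 as noncoding or pseudogene (25%, against 11.1%). They lay on 16 chromosomes, and Amer1 was the 1 named member on the X (3.12%, against 2.36% of named genes at 10 or more).

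Irs1 and Irs2 encode the adaptors that relay signals from the insulin and insulin-like growth factor receptors. Irs1 was at 38.6, 36.6, 7.61 and 18. Its PA level was 5.07 times the RO level in WT (interval 4.05 to 6.42) and 2.04 times in KO (1.72 to 2.42), so the KO RO library stood between WT RO and the PA libraries. Irs2 was at 69.9, 91.4, 32.5 and 34.0. Both RO libraries lay close together, and the PA to RO ratio was 2.15 in WT (1.90 to 2.43) and 2.69 in KO (2.39 to 3.03).

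Several members encode immune or secreted proteins. Gbp5, an interferon-induced GTPase, was at 24.3, 25.3, 5.69 and 6.87. The genotypes were close in each fraction, and its ratio of 3.36 was the highest among named members. Il17rb, a receptor subunit for interleukin 17 family cytokines, was at 47.5, 16.4, 3.43 and 7.14. Here the PA libraries differed 2.90-fold, WT over KO (2.45 to 3.44), and the RO libraries in the other direction, 2.08-fold, KO over WT (1.41 to 3.11). Serpina3c and Serpina3a encode related serine protease inhibitors, whose reads the counting could have split between copies. Serpina3c was at 32.5, 19.8, 6.36 and 3.26, and Serpina3a at 13, 7.61, 2.93 and 2.56. Both were lower in KO in each fraction, but the counting interval of Serpina3a in RO included 1 (KO over WT 0.873, interval 0.515 to 1.47). P2ry2, a receptor for extracellular ATP and UTP, was at 8.36, 16.7, 2.01 and 3.61, higher in KO in each fraction. Vstm4, a membrane protein with an immunoglobulin domain, was at 14.4, 9.76, 1.92 and 3.61.

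Regulators of signalling formed a further group. Amer1, which recruits the APC protein to the membrane and acts in Wnt signalling, was at 48.6, 36.7, 10.5 and 13. Gadd45g, a stress-responsive regulator of growth arrest and of MAP kinase signalling, was at 68.7, 29.6, 14.4 and 10.6. Its KO PA level was 2.32-fold under WT PA and 2.80-fold over KO RO. Spry2, an inhibitor of receptor tyrosine kinase signalling, was at 10.3, 8.69, 3.77 and 3.44, with little difference between genotypes. Pdcl, a phosducin-like chaperone of G protein subunits, was at 12.5, 13.3, 4.77 and 5.99.

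Metabolic, transport and exocytosis genes followed. Aldh1l1, an enzyme of folate metabolism, was at 114, 65.0, 31.3 and 25.1. It was the protein-coding named member with the highest level, and its PA to RO ratio was 3.63 in WT (3.24 to 4.08) and 2.59 in KO (2.25 to 2.98). Slc30a2, a zinc transporter, was at 46.7, 50, 11.8 and 18.8, and Slc25a30, a mitochondrial carrier, at 66.7, 67.6, 31.5 and 32.7. Sco1, a copper chaperone of cytochrome c oxidase, was at 13.2, 7.61, 3.26 and 2.47. Pigb, an enzyme of glycosylphosphatidylinositol anchor synthesis, was at 22.6, 16.8, 3.60 and 7.23. Sv2c, a synaptic vesicle protein, was at 25.3, 17.1, 3.77 and 6.17. Doc2b, a calcium sensor of exocytosis, was at 15.6, 8.69, 0.837 and 3.44, where the WT RO level rests on 10 counts. In Pigb, Sv2c and Doc2b alike the WT libraries lay outside the KO libraries, highest in PA and lowest in RO.

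Of the DNA-binding members, Arid5a, which also binds RNA of inflammatory genes, was at 41.7, 42.9, 11.2 and 19.3. Tbx2, a T-box repressor, was at 17.2, 14.6, 5.52 and 6.70. The zinc finger genes Zfp964 and Zfp846 were at 9.10, 10.9, 2.43 and 4.14, and at 23.9, 22.9, 10.8 and 10.8. In these 4 genes the PA libraries of both genotypes lay close together. 9030624G23Rik, listed as protein coding, was at 4.51, 10.4, 0.335 and 1.76, with 4 counts in WT RO.

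Neat1, the long noncoding RNA on which paraspeckles assemble, was far above all other members at 10026, 4159, 1712 and 1540. Its PA to RO ratio was 5.86 in WT (5.77 to 5.94) and 2.70 in KO (2.65 to 2.75), narrow because of its many reads. Gm42047, a long intergenic RNA, was at 96.0, 29.9, 7.78 and 8.99, and Gm43305, listed as a processed transcript, at 34.3, 11.6, 3.26 and 4.23. The antisense RNA A530020G20Rik was at 78.9, 31.1, 12.9 and 7.76; whether the counting used strand is not given in the sources used here, so an overlapping gene cannot be told apart from it. In all 4 of these RNAs the KO PA level was under the WT PA level by more than 2-fold. F630040K05Rik was at 10, 17.6, 4.18 and 2.20, 1700010B13Rik at 15.6, 18.3, 5.69 and 4.23, and Gm34294 at 11.2, 8.42, 1.92 and 3.17. The pseudogene Gm21811, whose reads may belong to a parent gene, was at 18.5, 16.8, 7.36 and 7.49.

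The 50 members without a symbol had a median highest level of 14.4. ENSMUSG00000027962 was the most abundant of them, at 241, 146, 39.2 and 59.3. ENSMUSG00000073424 had the largest ratio of all members and rests on 150 counts (WT) and 36 counts (KO) in PA against 0 counts in each RO library. In all, 6 members had 3 counts or fewer in some RO library.

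**Figure D3:**
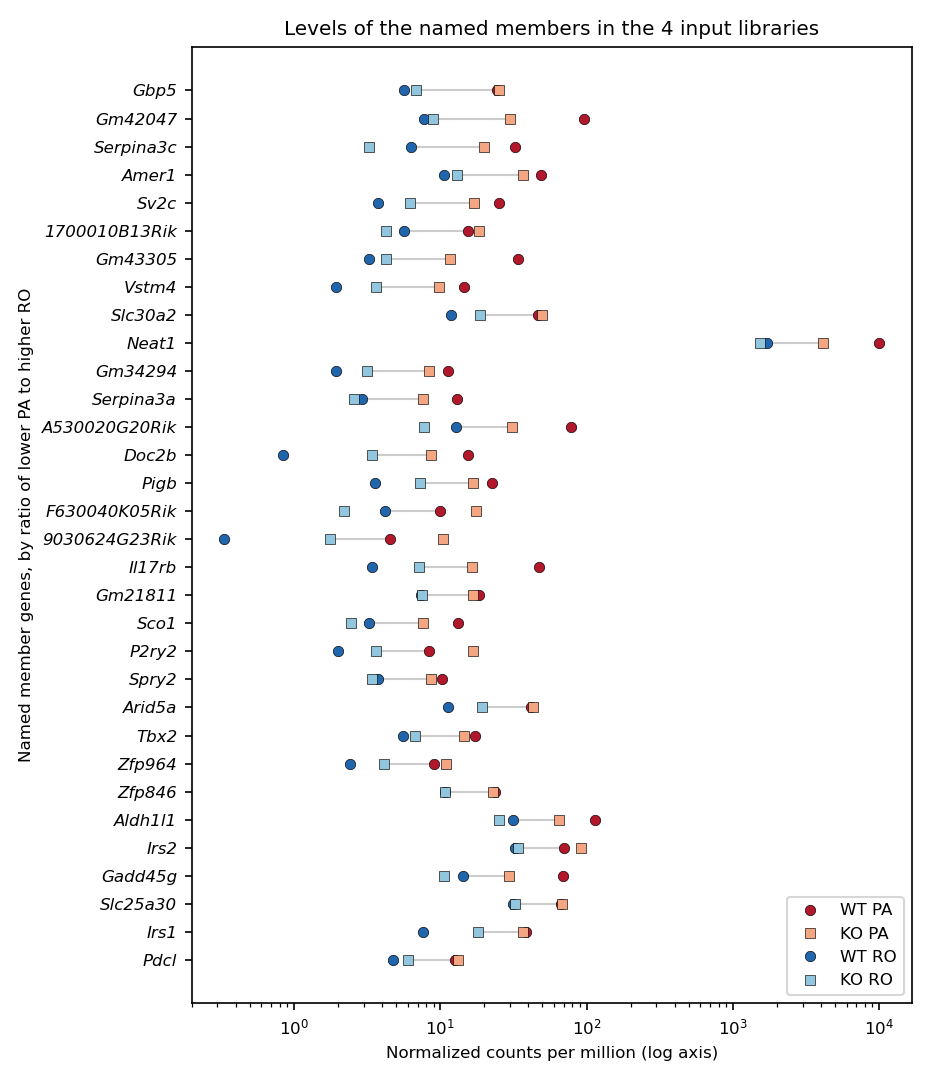
Normalized CPM (log axis) of the 32 named members in the 4 input libraries, red for PA and blue for RO, circles for WT and squares for KO, ordered by the ratio of lower PA to higher RO; the grey line joins those values. Neat1 lies far to the right at 1540 to 10026, and Doc2b and 9030624G23Rik have WT RO levels under 1.

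The rule fixes the fractions but not the genotypes, which were compared within each fraction. In PA, 5 members were at least 2-fold higher in KO, against a background of 13.5% of all genes at 10 or more, and 9 were at least 2-fold lower, against 12.4%. In RO, 13 were at least 2-fold higher in KO (background 12%) and 3 at least 2-fold lower (background 12.1%). A 2-fold genotype difference was in these counts no more frequent than among all genes, except for the higher direction in RO at 15.9%. The rule caps a member's RO levels and holds up its PA levels, so the genotype ratios are not free of it. The median log2 ratio of KO to WT was -0.11 in PA, against -0.01 over all genes, and 0.25 in RO, against -0.02. These medians describe the members, which are not replicates, and their distance from all genes was not tested. Under 2-fold in both fractions were 55 of 82 (67.1%), against 61.6%. Of the members 30 were lower in KO PA and higher in KO RO (36.6%, against 14.9% of all genes), and 7 the reverse; 3 were 2-fold higher in KO in both fractions and 0 lower in both. Marker lists also differed between the genotypes: 13 of 17 round spermatid markers were at least 2-fold higher in KO PA and 11 in KO RO, 3 of 13 endothelial markers in KO PA and 10 in KO RO, and 5 of 8 Leydig markers were at least 2-fold lower in KO PA. Their part in the genotype ratios of the members was not tested.

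Among named members, 6 of 32 were at least 2-fold lower in KO PA (18.8%, against a background of 11.6% of named genes at 10 or more) and 1 higher (3.12%, against 10.4%). Those lower were Gm42047 (log2 ratio -1.67), Gm43305 (-1.52), Il17rb (-1.51), A530020G20Rik (-1.33), Neat1 (-1.27) and Gadd45g (-1.20). Gm42047, Gm43305, A530020G20Rik and Neat1 are noncoding RNAs. Of the other noncoding or pseudogene members, F630040K05Rik (0.79) and 1700010B13Rik (0.22) were higher in KO PA. Gm34294 (-0.40) and Gm21811 (-0.13) were lower by less than 2-fold. The share lower in KO PA among all noncoding genes is not given here. The 1 higher was 9030624G23Rik, at 1.12. In RO, 3 were at least 2-fold higher in KO, Doc2b (1.56), 9030624G23Rik (1.44) and Irs1 (1.19), that is 9.38% against a background of 10%, and 0 were lower (background 11.7%). The lowest RO ratios were those of Serpina3c (-0.87), F630040K05Rik (-0.79), A530020G20Rik (-0.70) and Gadd45g (-0.43). The signs in PA and RO were opposite for 15 of 32 (46.9%, against a background of 29.1% of named genes at 10 or more), and for 6 of these (18.8% of 32, against 13.4%) both counting intervals left out 1. The levels that chose the members also make up these ratios, so the shares are not free of the rule.

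**Figure D4:**
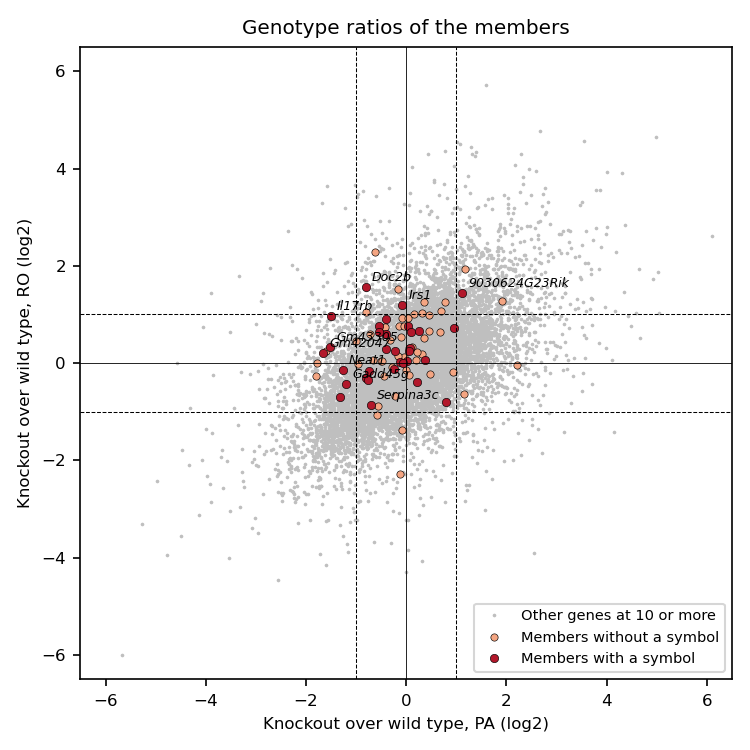
KO over WT in PA (horizontal, log2) and in RO (vertical, log2) with 0.5 added to each level, for named members in dark red, unnamed members in light red and other genes at 10 or more in grey; dashed lines mark 2-fold. Most members lie inside the dashed lines, Gm42047 lies at -1.67 in PA, and Doc2b lies at 1.56 in RO.

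The peak lists hold m6A peaks that the authors called for each pair of immunoprecipitated and input libraries. A peak needs reads of its gene, so the counts below follow levels that the rule used and are a description. In WT PA 24 members had a peak (29.3%, background 30.4%), and in KO PA 25 (30.5%, background 39.7%). In WT RO 19 had one (23.2%, background 36.3%), and in KO RO 23 (28.0%, background 35.7%). Within bands of input level, the member shares lay on both sides of those of all genes. Under 10, 2 of 12 members in WT PA had a peak (16.7%, against 12% of all genes), 3 of 12 in KO PA (25%, against 18.3%), 11 of 68 in WT RO (16.2%, against 18.2%) and 14 of 64 in KO RO (21.9%, against 17.0%). At 10 to 20 the members with a peak were 7 of 35 (20%, against 22.3%), 10 of 41 (24.4%, against 27.1%), 5 of 8 (62.5%, against 25.8%) and 6 of 12 (50%, against 25.5%). At 20 to 50 they were 9 of 22 (40.9%, against 31.0%), 9 of 23 (39.1%, against 41.5%), 2 of 5 (40%, against 37.7%) and 2 of 4 (50%, against 37.3%). The bands hold few members, least of all in RO. The mirror rule, RO at least 2 times PA, took 99 genes, of which 6, 14, 19 and 13 had a peak in the respective list. The members held 49, 45, 34 and 31 peaks. Of the WT PA peaks 31 (63.3%) overlapped a KO PA peak by at least 1 bp, against 79.7% of all WT PA peaks, and of the KO PA peaks 32 (71.1%) overlapped a WT PA peak, against 56.6% of all KO PA peaks.

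By the class in the lists, coding sequence held 40.8%, 37.8%, 23.5% and 35.5% of the member peaks, against 56.4%, 55.2%, 49.8% and 53.4% of all peaks of the same lists. The 3′ untranslated region held 18.4%, 26.7%, 38.2% and 25.8%, against 20.7%, 21.8%, 24.6% and 24.0% of all peaks. A further 38.8%, 33.3%, 38.2% and 35.5% were listed as exon, against 20%, 19.2%, 21.7% and 19.4% of all peaks, the class given to peaks of noncoding members such as Neat1 and also to most of those of Amer1.

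Peaks in all 4 lists were present for 13 members (background 21%), among them Irs2, Amer1, Gadd45g, Neat1, Serpina3a, Serpina3c, Slc30a2, Sco1, Tbx2 and Zfp846. Peaks in both PA lists and in no RO list were present for 2, Aldh1l1 and Gm42047 (background 1.04%), and peaks in both RO lists and no PA list for 1, Slc25a30 (background 1.03%). Arid5a, Irs1, Pdcl, Spry2 and Sv2c had peaks in both PA lists and in KO RO. Sco1, Slc30a2 and Serpina3c rest in WT RO on a peak with a false discovery rate of 0.818 in the authors' deposited table, and at a rate under 0.05 the 13 become 10. Il17rb, P2ry2 and Gm34294 had one in WT PA alone, that of P2ry2 with a rate of 0.416 in the authors' deposited table, Doc2b and F630040K05Rik in WT RO alone, and Gbp5 and Pigb in all but WT PA. A Pdcl peak in WT PA had the same fold and deposited p-value as the P2ry2 peak but a rate of 0.104 in the authors' deposited table. In WT PA the deposited rates thus do not follow the deposited p-values alone. Slc25a30, Doc2b, F630040K05Rik and Vstm4 had no PA peak, and Gbp5 none in WT PA, although their input was higher in PA. The only peak of Doc2b was in WT RO, its lowest library, and that of Vstm4 was in KO RO.

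Coordinates are mm10, the build in the submitters' processing notes, and folds are those of the authors' deposited table, enrichment of immunoprecipitated over input, to be read within a list. Irs2 carried the most peaks, 9 in each PA list, 8 in WT RO and 4 in KO RO. In the authors' deposited table its strongest WT PA peak, in coding sequence at chr8:11006660-11007319, had a fold of 176 and rank 37 of 7502. A peak at chr8:11006481-11006990 led Irs2 in WT RO with a fold of 144 in the authors' deposited table, and it overlapped peaks of the other 3 lists. Irs1 had a coding peak with the same bounds in both PA lists, chr1:82237358-82287039 in 2 blocks, with folds of 51.6 in WT and 50.4 in KO in the authors' deposited table. A shorter peak overlapped it in KO RO, and WT RO, where Irs1 was lowest, had none.

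Amer1 had its strongest peak at chrX:95427198-95427706, with a fold of 99.1 in WT PA in the authors' deposited table, and peaks of the other 3 lists overlapped it. Sv2c had a coding peak at chr13:96088371-96088641 with a fold of 87.2 in KO PA, in the authors' deposited table. Peaks of WT PA and KO RO overlapped it, and WT RO, where Sv2c was lowest, had none.

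Aldh1l1 had 1 peak in each PA list, both in the 3′ untranslated region and not overlapping: chr6:90599396-90599545 in WT (fold 16.9) and chr6:90599725-90599994 in KO (fold 8.65) in the authors' deposited table. Gm42047 shared 1 region, chr8:121836811-121837050 in WT and chr8:121836841-121837020 in KO, with folds of 29.5 and 11.3 in the authors' deposited table. Neat1 was listed in each list as a pair of nearly identical overlapping peaks, which count as 1 region near chr19:5843913-5844210, with folds from 1.68 to 14.4 in the authors' deposited table. Its enrichment was low beside the strongest peaks of Irs2 and Amer1 in the same lists, although its input was the highest of all members. The single Il17rb peak, chr14:29996314-29997002 in the 3′ untranslated region, had a fold of 33.2 in WT PA in the authors' deposited table, the library in which Il17rb was highest.

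**Figure D5:**
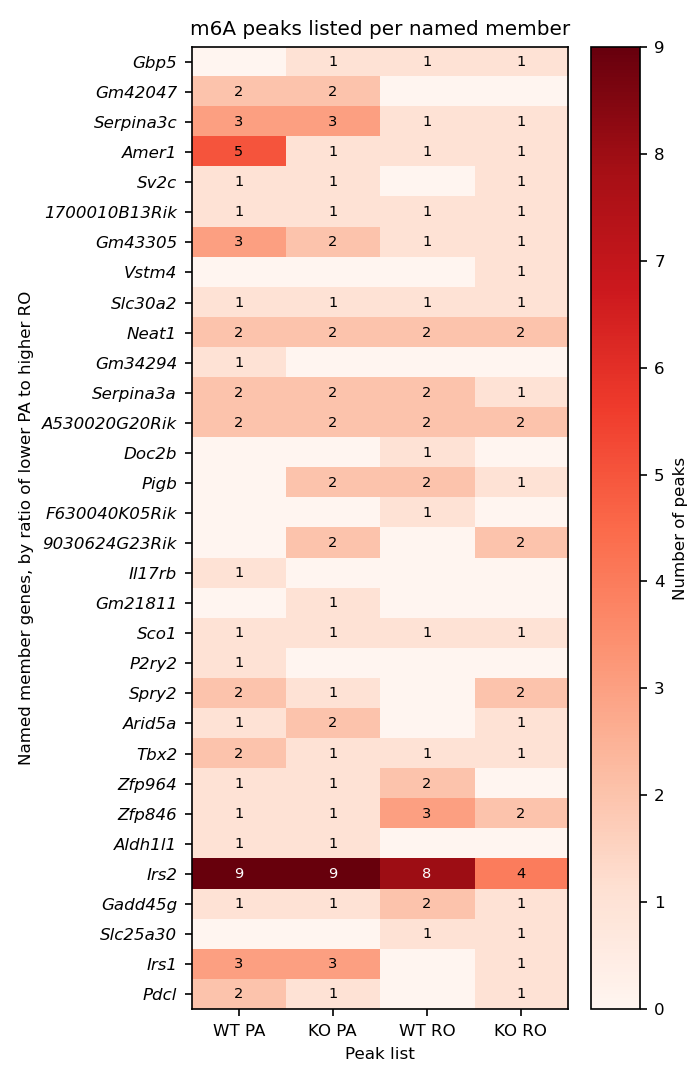
Number of m6A peaks listed for each of the 32 named members (rows, ordered by ratio) in the 4 peak lists (columns), darker for more; blank cells have 0. Irs2 stands out with 9, 9, 8 and 4 peaks, and Neat1 shows 2 in each list because its pair of overlapping peaks is listed separately.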

How the data were processed

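The authors deposited whole-number counts per gene for the 4 input libraries, with Ensembl identifiers, not normalized per the file headers and values; no column was left unused (0). The authors deposited 4 peak lists, in which the fold enrichment is a ratio of immunoprecipitated over input signal, the p-value has a column of its own, and a log10 false discovery rate was read as a score. The submitters' processing notes name cutadapt 2.5, HISAT2 2.1.0 and HOMER 4.10.4 and the build mm10, without roles; the counting tool and peak caller are not given in the sources used here.

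Counts were divided by median-of-ratios size factors, then by the mean library total, to give normalized CPM. Log2 ratios have 0.5 added to each level; level ratios with exact binomial intervals have nothing added. The members and lists were chosen with earlier results of these data known. All 32 members with a symbol are named, although the rule written for naming asked for a part of them: the largest ratios, levels and genotype ratios, the highest peak folds and the genes nearest the threshold. Peaks were compared by exon blocks on the same strand. TMM factors came from edgeR 4.0.16 in R 4.3.3; other steps used Python 3.11.15, numpy 2.4.6, scipy 1.17.1 and pandas 2.3.3. The scripts were checked on simulated data. Alternatives were another scaling, added value, minimum and fold, and stricter peaks.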

Additional observations from a re-analysis of the deposited data

Results flagged for a closer look

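In 6 of the 32 named members (18.8%, against 13.4% of all named genes at 10 or more) the KO to WT ratio had opposite signs in PA and RO with both counting intervals leaving out 1; the difference between the fractions was not tested, and each rests on 1 library per group. On the log2 scale Il17rb was at -1.51 in PA and 0.96 in RO. Doc2b was at -0.81 and 1.56, Pigb at -0.41 and 0.91, Vstm4 at -0.54 and 0.76, and Sv2c at -0.55 and 0.64. F630040K05Rik ran the other way, at 0.79 in PA and -0.79 in RO. Signs were opposite for 15 of the 32 named members in all (46.9%, against 29.1%). These ratios use the same input levels that chose the members, so neither share is free of the rule.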

How the results depend on the processing

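No paired analysis was possible because the labels give no replicate numbers and each group has 1 library, so no replicate could be left out either. The number of genes was 84 with TMM factors, which held all 82, and 61 with library totals alone, which shared 52 of the 82 (63.4%). Scaling by totals moved the median of all genes by -0.12 in WT PA and 0.16 in KO PA on the log2 scale. With 2 added the number was 48, with a minimum of 1 it was 405, with a minimum of 20 it was 36, at 1.5 times 343 and at 3 times 13. From WT libraries alone it was 1302 and from KO libraries alone 758, alternatives chosen after seeing the data.

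Members 2-fold higher in KO PA numbered 0 of 48 with 2 added, 38 of 405 with a minimum of 1 and 1 of 36 with a minimum of 20. Those lower numbered 29 of 405 with a minimum of 1. In RO those higher numbered 0, 40 and 3 of the same totals, and those lower 0, 10 and 1. The totals differ between settings, and the shares over all genes under these settings are not given here. The median log2 ratio of KO to WT was -0.42 in PA with a minimum of 20 and 0 in RO with a minimum of 1. Counts of members with peaks stayed within 1.5 times under TMM factors, a false discovery rate under 0.05 and a fold of at least 5. Most members are low in RO, so these counts rest on few reads.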
